A study of Drosophila melanogaster with 10 samples.

Results

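The 6 odorant-binding protein (Obp) genes of the Drosophila melanogaster X chromosome, Obp8a, Obp18a, Obp19a, Obp19b, Obp19c and Obp19d, were followed across head RNA of 2 strains and of 6 lines with exchanged chromosomes. They are all the genes that the Release 6 annotation names as Obp genes on the X. They were taken by name and position and by no cut on signal, but the set was chosen with earlier results of these data known. Each gene had 1 probe set of its own on the array, so the members are 6 of the 10844 genes that had a probe set of their own, and they join 30 measured Obp genes on other chromosomes. No dim probe set was left out of the description.

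Odorant-binding proteins are small secreted proteins with a conserved pattern of cysteines. Support cells release them into the fluid that fills olfactory and taste bristles, where they bind odorants, tastants or pheromones. Some members of the family are also made outside these sense organs, in the fat body, under the cuticle or in the male accessory gland. Obp19a, Obp19b, Obp19c and Obp19d lie side by side in the annotation with no other protein-coding gene between them, while Obp8a and Obp18a stand alone.

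Z30 is a strain of the Zimbabwe (Z) behavioural race, whose females are known to discriminate against males of the cosmopolitan (M) race. It was set against Fr, the M strain of the study. Z30 and Fr had 2 arrays each, and the lines ZMM, ZMZ, ZZM, MMZ, MZM and MZZ had 1 array each. The 3 letters of a line name, in order, the strain that gave its X, the second and the third chromosome, with Z standing for Z30 and M for Fr. The labels say nothing of the fourth chromosome or the mitochondria. Every sample was total RNA from the heads of nonvirgin females aged 3 to 5 days, with 100 to 200 heads each. The X came from Z30 on 5 arrays (Z30 1, Z30 2, ZMM, ZMZ and ZZM) and from Fr on 5 arrays (Fr 1, Fr 2, MMZ, MZM and MZZ). Nothing in the labels says that both arrays of a strain came from separate cultures, so the p-values measure only the spread between these samples, which may be technical.

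Values are the deposited linear signals, which had a 2% trimmed mean of 500.1 on each array, and the number of arrays limits their precision. Arrays Z30 1 and Fr 1 stood apart from the other 8: their highest signals were 26039 to 28895 against 46285 to 59815, and the geometric mean of their hybridisation controls was 538 to 651 against 1500 to 2179. Over the 13966 probe sets their median rank correlation with the other arrays was 0.864 to 0.885. It was 0.905 for MZM and 0.929 to 0.945 for the other 7. The labels name no batch, and fits that take Z30 1 and Fr 1 as a block of their own are called the blocked fits. The head origin showed in the photoreceptor genes, whose summed signal over the 3 measured markers was 47828 to 88744 with the X from Z30 and 43316 to 93342 with the X from Fr. Of 5 measured genes of the antenna, Obp28a (72.5 to 1008.8) and a10 (108.8 to 780.8) were above the floor on all 10 arrays, while lush lay at or under it on 7 arrays and Obp83b and Orco on 3 each. The summed signal of these 5 genes was 354 to 1259 with the X from Z30 and 681 to 1577 with the X from Fr, and its part in the members' values was not tested. The floor is a signal of 38.9, and signals at or under it have no order among themselves.

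Obp18a separated the arrays by their X. Its signal was 1805.8 on Z30 1, 2814.9 on Z30 2, 2282.9 on ZMM, 3270.2 on ZMZ and 2571.7 on ZZM, against 5693.8 on Fr 1, 6416.6 on Fr 2, 6363.6 on MMZ, 8171.1 on MZM and 5698.0 on MZZ. The highest array with the X from Z30 lay below the lowest array with the X from Fr, so the groups did not overlap. The means were 2549 ± 551 with the X from Z30 and 6469 ± 1013 with the X from Fr (SD, n = 5 each), and the geometric mean was 2.56-fold lower with the X from Z30. In RNA from whole heads, fewer cells that make a transcript and less transcript per cell cannot be told apart. Probe sequences were not used here, so a difference in transcript level and a difference between the strains in the sequence under the probes cannot be told apart either.

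The fitted difference of Obp18a with the X from Z30, at equal origin of the second and the third chromosome, was -1.35 log2 units (SE 0.21, 95% interval -1.80 to -0.89). Its adjusted p was 0.0591 (limma, Benjamini-Hochberg over 8379 probe sets that passed a filter on dim signal), which misses the threshold of 0.05. By p-value the gene was in place 7 of the 8379, and in place 5 of the 1302 X-linked ones. In the blocked fit the same difference had an SE of 0.17 and an adjusted p of 0.0153, and Obp18a was then called. The blocked call was lost when Fr 1, Fr 2, Z30 1, MMZ or ZMM was left out, with adjusted p between 0.0204 and 0.118 over the 10 arrays left out in turn, while the difference stayed between -1.47 and -1.21. It was also lost without the variance trend (adjusted p = 0.0767) and with dim probe sets kept in the fit (adjusted p = 0.197).

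Obp8a, known in males as an odorant-binding protein of the seminal fluid, had 26.7 on Z30 1, 164.1 on Z30 2, 274.3 on ZMM, 295.1 on ZMZ and 254.3 on ZZM, against 200.0 on Fr 1, 392.6 on Fr 2, 472.7 on MMZ, 410.5 on MZM and 378.1 on MZZ. The groups overlapped only through Fr 1, which lay below 3 of the arrays with the X from Z30, and Z30 1 was under the floor. The means were 203 ± 110 with the X from Z30 and 371 ± 102 with the X from Fr (SD, n = 5 each). The fitted difference was -0.94 (SE 0.54, 95% interval -2.13 to 0.24, limma adjusted p = 0.999). The blocked fit gave the same difference an SE of 0.25 and an interval of -1.49 to -0.39, and its adjusted p was 0.462. On the 8 arrays without Z30 1 and Fr 1 the groups did not overlap, and the difference was -0.77. Without Z30 1 alone it was -0.57.

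Of the 4 measured markers of male tissue, the accessory gland gene Acp26Aa lay at or under the floor on all 10 arrays. The accessory gland gene SP (85.0 to 273.3) and the testis genes Mst84Da (131.2 to 357.3) and Mst87F (90.3 to 355.0) were above it on all 10. The 4 genes together had a summed signal of 343 to 724 with the X from Z30 and 496 to 869 with the X from Fr, and their part in the Obp8a values was not tested.

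**Figure D1:**
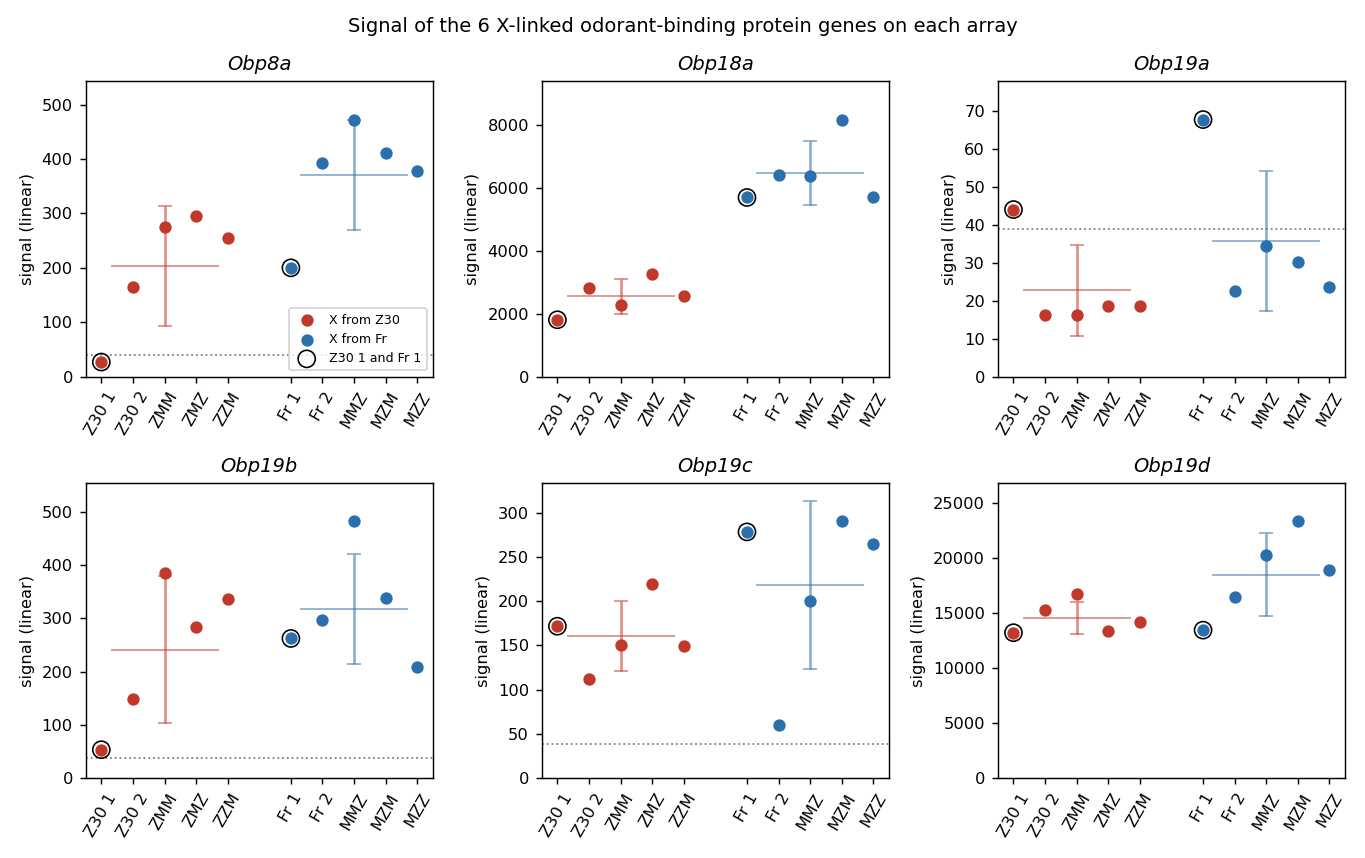
Signal (linear scale, from 0) of the 6 X-linked Obp genes on each of the 10 arrays, in red with the X from Z30 and in blue with the X from Fr; rings mark Z30 1 and Fr 1, horizontal lines are means, bars are SD over 5 arrays, and the dotted line is the floor of 38.9 where it lies in the range shown. Obp18a has no red point above 3270.2 and no blue point below 5693.8, while the colours overlap for the other 5 genes.

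In the Obp19 cluster limma called no gene for the X, and whether its genes differed from each other was not tested. Obp19d, also known as a pheromone-binding-protein-related gene whose product occurs in taste organs and beneath the cuticle, was brighter than 98.9% to 99.4% of all probe sets of each array. It had 13231.5 on Z30 1, 15286.6 on Z30 2, 16723.3 on ZMM, 13409.5 on ZMZ and 14177.5 on ZZM, against 13464.1 on Fr 1, 16491.0 on Fr 2, 20313.6 on MMZ, 23357.7 on MZM and 18920.5 on MZZ. In linear signal the 3 lines with the X from Fr were above every array with the X from Z30, whereas both Fr arrays lay within the range of the arrays with the X from Z30. That order did not hold for its place within the array. MZZ (99.284%) was level with ZMM (99.284%) and below Z30 1 (99.356%). The fitted difference was -0.35 (SE 0.19, 95% interval -0.77 to 0.07, limma adjusted p = 0.999), and the blocked interval was -0.63 to -0.07 with an adjusted p of 0.897. Obp18a and Obp19d were both highest on MZM, and without that array their differences were -1.21 and -0.24.

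Obp19b, which is needed in taste bristles of the proboscis for the response to amino acids, had 53.6 on Z30 1, 148.1 on Z30 2, 385.1 on ZMM, 283.7 on ZMZ and 336.4 on ZZM, against 262.2 on Fr 1, 296.3 on Fr 2, 482.0 on MMZ, 338.5 on MZM and 208.7 on MZZ. The low values were those of the 2 Z30 arrays and not of the lines that carry the Z30 X. The means were 241 ± 137 with the X from Z30 and 318 ± 103 with the X from Fr (SD, n = 5 each), and the fitted difference was -0.38 (SE 0.45, 95% interval -1.39 to 0.62, limma adjusted p = 0.999). It ran between -0.098 without Z30 1 and -0.67 without ZZM when each array was left out in turn.

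Obp19c had 171.7 on Z30 1, 112.1 on Z30 2, 150.9 on ZMM, 219.1 on ZMZ and 148.9 on ZZM, against 278.2 on Fr 1, 60.3 on Fr 2, 199.7 on MMZ, 290.2 on MZM and 264.0 on MZZ. Fr 2 held the lowest value of all 10 arrays and Fr 1 one of the highest, so the range of the Fr strain spanned all arrays with the X from Z30. The fitted difference was -0.38 (SE 0.46, 95% interval -1.40 to 0.64, limma adjusted p = 0.999). It ran between -0.16 without MZM and -0.69 without Fr 2.

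Obp19a, an odorant-binding protein of the antenna, was above the floor only on Z30 1, with 44.0, and on Fr 1, with 67.7. On the other 8 arrays its signals lay between 16.2 and 34.4, under the floor, and no order or fold can be read from them. Both arrays above the floor are those that stood apart in their controls. It was the 1 member that did not pass the filter, and without the filter its fitted difference was -0.09 (SE 0.17, 95% interval -0.50 to 0.32).

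Without a block, limma called 0 of the 5 tested members for the X, where it called 0.0597% of all tested probe sets. At an unadjusted p under 0.05 there was 1 member, Obp18a, with 207 of all 8379 probe sets. In the blocked fit limma called 1 member, Obp18a, against 0.107% of all probe sets. At an unadjusted p under 0.05 there were 3 members, with 391 of all 8379 probe sets. By p-value Obp18a, Obp8a and Obp19d were in places 4, 58 and 164 of the 8379. Among the 1302 X-linked ones they were in places 3, 43 and 104, so most probe sets ranked before them were X-linked too. After quantile normalization limma called Obp18a without the block (adjusted p = 0.0340), against 0.0477% of all probe sets. The difference with the X from Z30 was negative for Obp8a, Obp18a, Obp19b, Obp19c and Obp19d, as for 45.8% of the 13966 probe sets without a filter. That share counts probe sets at the floor on every array, whose difference is 0, as not negative. Over the 8379 tested probe sets the median difference was 0.002. The sign of Obp19a cannot be read, since its -0.09 rests on Z30 1 and Fr 1 alone and was the same for all 3 chromosomes. The median difference of the members was -0.38, with 0.00 over the 13966 probe sets and 0.00 over the 2076 X-linked ones.

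Groups without overlap can also be counted for the X. Of the 6 members, 1 (Obp18a) lay wholly lower with the X from Z30 over the 10 arrays, as did 0.422% of the 13966 probe sets with values set to the floor. Over the 8 arrays without Z30 1 and Fr 1 these were 2 members, Obp18a and Obp8a, against 1.25%. Over the 6 lines alone they were 3 members, Obp18a, Obp8a and Obp19d, against 4.99%. These shares are over all chromosomes, and the share among X-linked probe sets was not counted.

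The lines allow the X to be exchanged while the second and the third chromosome stay matched. There are 6 such pairs of arrays, which share MZZ and ZMM and so are not independent. Obp18a was lower with the X from Z30 in 6 of 6 pairs, and its ratio of signals ran between 0.315 in ZZM against MZM and 0.514 in ZMZ against MMZ. Of the probe sets of all chromosomes that passed the filter, 2.15% were lower in all 6 pairs.

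Obp8a was lower in 5 of the 6 pairs, with the exception of ZMM against Fr 1 (274.3 against 200.0). Obp19b, Obp19c and Obp19d were each lower in 4 of the 6. For Obp19d the exceptions were the pairs of ZMM with Fr 1 and with Fr 2, with ratios of 1.24 and 1.01. The pairs that differ between lines only gave 13409.5 on ZMZ against 20313.6 on MMZ, and 14177.5 on ZZM against 23357.7 on MZM.

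**Figure D2:**
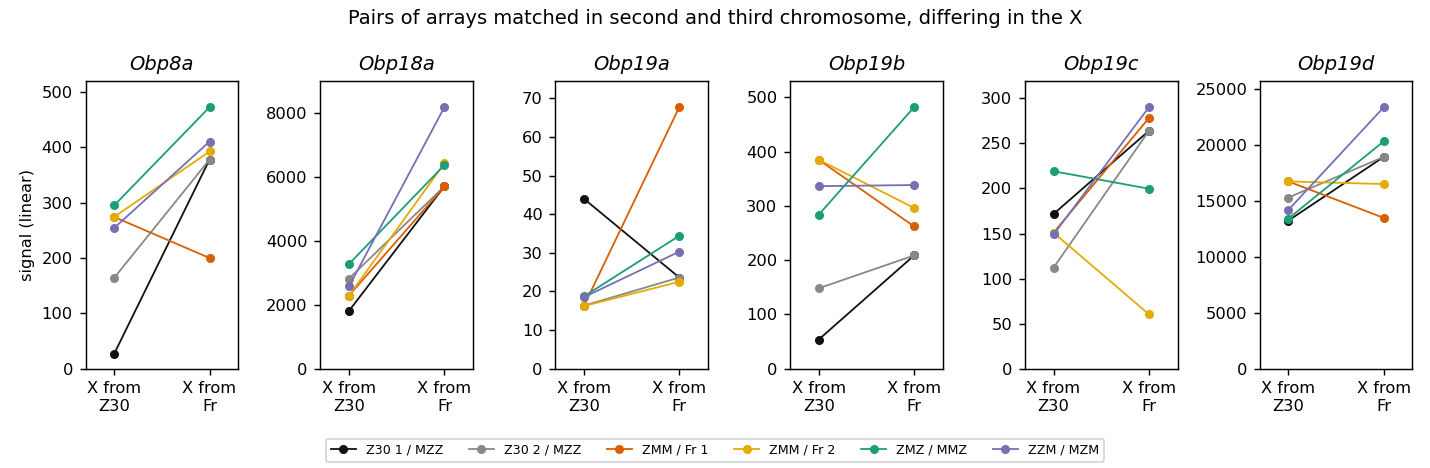
Signal (linear scale, from 0) of each X-linked Obp gene on pairs of arrays with the same origin of the second and the third chromosome, with the X from Z30 on the left and the X from Fr on the right; each line joins 1 pair, and MZZ and ZMM each stand in 2 pairs. All 6 lines go up to the right for Obp18a, and in the other genes at least 1 line goes down.

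The second and the third chromosome carry none of these genes, and without the block the 95% interval of every member spanned 0 for both. With the second chromosome from Z30, Obp18a differed by -0.03 (95% interval -0.48 to 0.43), and with the third chromosome from Z30 also by -0.03 (95% interval -0.49 to 0.42). Both intervals leave out the size of its difference with the X. Obp19d differed by 0.14 (95% interval -0.28 to 0.55) with the second and by -0.00 (95% interval -0.42 to 0.41) with the third.

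The largest differences of a member with these 2 chromosomes were those of Obp19b. It averaged 217 ± 123 with the second chromosome from Z30 and 342 ± 91.3 with that from Fr, and 235 ± 162 with the third from Z30 and 324 ± 46.6 with that from Fr (SD, n = 5 each). The fitted differences were -0.70 (95% interval -1.70 to 0.30) and -0.57 (95% interval -1.57 to 0.44). Both were larger in size than its -0.38 with the X. The blocked interval for the second chromosome was -1.35 to -0.04, with an adjusted p of 0.639 (limma). Obp8a differed by -0.47 (95% interval -1.66 to 0.71) with the second and by -0.26 (95% interval -1.45 to 0.92) with the third chromosome. Obp19c differed by 0.23 (95% interval -0.80 to 1.25) and 0.24 (95% interval -0.79 to 1.26), in that order. Obp19a differed by -0.09 with each.

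For the second chromosome limma called 0 of the 5 tested members, against 0.0358% of all tested probe sets, and for the third 0 against 0.0955%. No member had an unadjusted p under 0.05 in either, where 342 and 376 of all 8379 probe sets had one. The blocked fit for the second called 0, against 0.155%, with 1 member (Obp19b) and 651 of all 8379 probe sets at an unadjusted p under 0.05. For the third it called 0, against 0.406%, with 0 such members and 629 such probe sets. The members' median difference was -0.06 for each of these chromosomes, with 0.00 for the second and 0.03 for the third over all 13966 probe sets.

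The moderated F test of the 3 pairwise interactions of origins called 0 members, and it called 0.0% of all tested probe sets. The adjusted p was 0.924 for Obp8a, Obp18a and Obp19b, 0.941 for Obp19c and 0.948 for Obp19d (limma). No member had an unadjusted p under 0.05 without the block, and 1 member (Obp19c) had one with it. Of all 8379 probe sets 331 had one without the block and 480 with it.

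**Figure D3:**
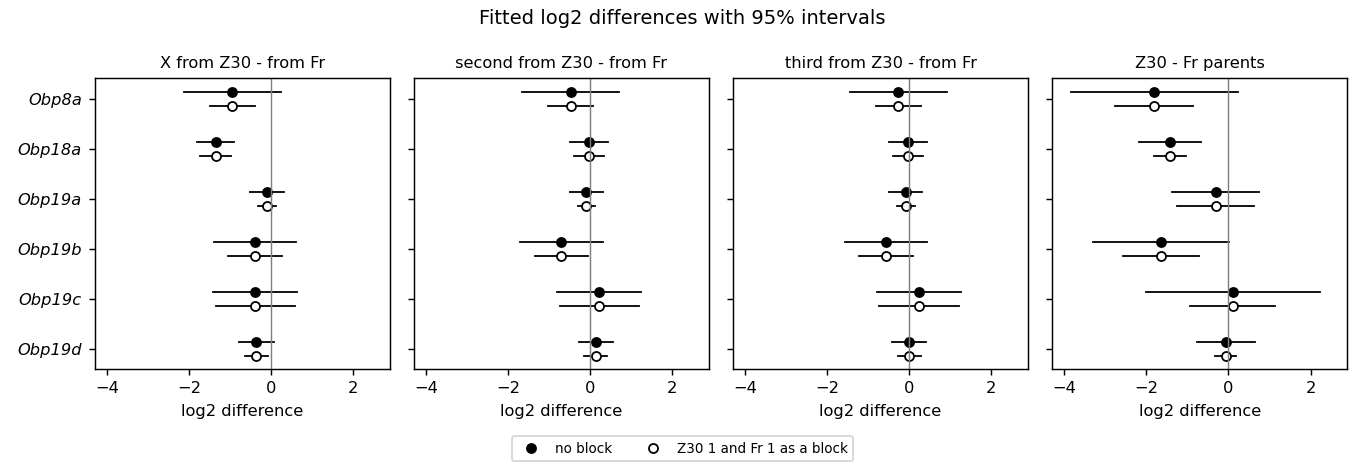
Fitted log2 differences with 95% intervals of the 6 genes for the X, the second and the third chromosome (Z30 minus Fr) and for the parents, without a block (filled) and with Z30 1 and Fr 1 as a block (open); the fits of Obp19a are those without a filter on dim probe sets. For Obp18a the interval lies below 0 for the X and the parents and spans 0 for the second and the third chromosome.

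Between the parents alone, Obp18a had 1805.8 and 2814.9 in Z30, against 5693.8 and 6416.6 in Fr, and averaged 2310 ± 714 in Z30 and 6055 ± 511 in Fr (SD, n = 2 each). The groups did not overlap, and the difference was -1.42 (95% interval -2.17 to -0.68, limma adjusted p = 0.511). It was -1.66 between Z30 1 and Fr 1 and -1.19 between Z30 2 and Fr 2.

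Obp8a and Obp19b, like Obp18a, had both Z30 values below both Fr values. The share of all probe sets with that order was not counted, and with 2 arrays of each strain it can easily arise by chance. Obp8a averaged 95.4 ± 97.2 in Z30 and 296 ± 136 in Fr, and Obp19b averaged 101 ± 66.8 in Z30 and 279 ± 24.1 in Fr (SD, n = 2 each). Their differences were -1.81 (95% interval -3.85 to 0.22) and -1.65 (95% interval -3.31 to 0.02). Within the pair Z30 1 and Fr 1 they were -2.36 for Obp8a and -2.29 for Obp19b, and within the pair Z30 2 and Fr 2 they were -1.26 for Obp8a and -1.0 for Obp19b.

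Obp19c and Obp19d overlapped between the strains. Obp19d averaged 14259 ± 1453 in Z30 and 14977.5 ± 2140 in Fr, a difference of -0.07 (95% interval -0.78 to 0.64). Obp19c averaged 142 ± 42.1 in Z30 and 169 ± 154 in Fr (SD, n = 2 each), and its difference was -0.70 within the pair Z30 1 and Fr 1 but 0.89 within the pair Z30 2 and Fr 2.

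For the parents limma called 0 of the 5 tested members, against 0.0358% of all tested probe sets. At an unadjusted p under 0.05 limma gave 1 member, Obp18a, with 351 of all 8379 probe sets. With the replicate number of the parents as a block it called 3 members against 6.58% of all tested probe sets, 3.76% in the lower direction: Obp18a (adjusted p = 1.2e-10), Obp8a (adjusted p = 0.00576) and Obp19b (adjusted p = 0.0109), all lower in Z30. That fit has 1 residual degree of freedom, and its calls were lost without the variance trend, where the adjusted p was 0.0830 for Obp18a, 0.0703 for Obp8a and 0.105 for Obp19b, and 0.561% of all probe sets were called. They were also lost when dim probe sets were kept in the fit, which called 0 members with 1 at an unadjusted p under 0.05.

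The strains and the lines can be set side by side for each gene, but the 2 contrasts are unlike. The strains differ in all 3 chromosomes. The lines with the X from Fr carry the second or the third chromosome from Z30 more often than those with the X from Z30. Averages of the lines by X therefore also mix the origins of the other chromosomes. Obp18a averaged 2708 ± 508 in the lines with the X from Z30 and 6744 ± 1280 in those with the X from Fr (SD, n = 3 each), again without overlap. Obp8a averaged 275 ± 20.4 in the lines with the X from Z30 and 420 ± 48.1 in those with the X from Fr, without overlap.

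Obp19b was apart between the strains but not between the lines, which averaged 335 ± 50.7 with the X from Z30 and 343 ± 137 with the X from Fr. Fitted over the 6 lines at equal origin of the second and the third chromosome, Obp19b differed by -0.39 (SE 0.35). Obp19d overlapped between the strains but not between the lines, with 14770 ± 1735 in the lines with the X from Z30 and 20864 ± 2269 in those with the X from Fr (SD, n = 3 each). In a fit of the 6 lines alone its difference was -0.66 (95% interval -1.02 to -0.30, limma adjusted p = 0.557). Whether a gene's difference itself differs between strains and lines was not tested. The pairwise interactions above cannot decide it, since they cancel from the difference between the strains and from that between the lines. Obp8a and Obp19b shared their 2 lowest arrays, Z30 1 and Z30 2.

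The other Obp genes give the family's own scale. The 30 on the other chromosome arms are those with a probe set of their own, and family members without one were not counted. Of the 30, 12 passed the filter, and 1 lay at or under the floor on every array. With the X from Z30, 14 of the 30 had a negative difference and the median was 0.00, and none lay wholly to one side in the 10 arrays. The members' median was -0.38, and this contrast of medians was not tested. Without and with the block limma called 0 of the 12 tested genes for the X, with 1 and 4 at an unadjusted p under 0.05. Of all 8379 probe sets 207 and 391 were under it, in that order.

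**Figure D4:**
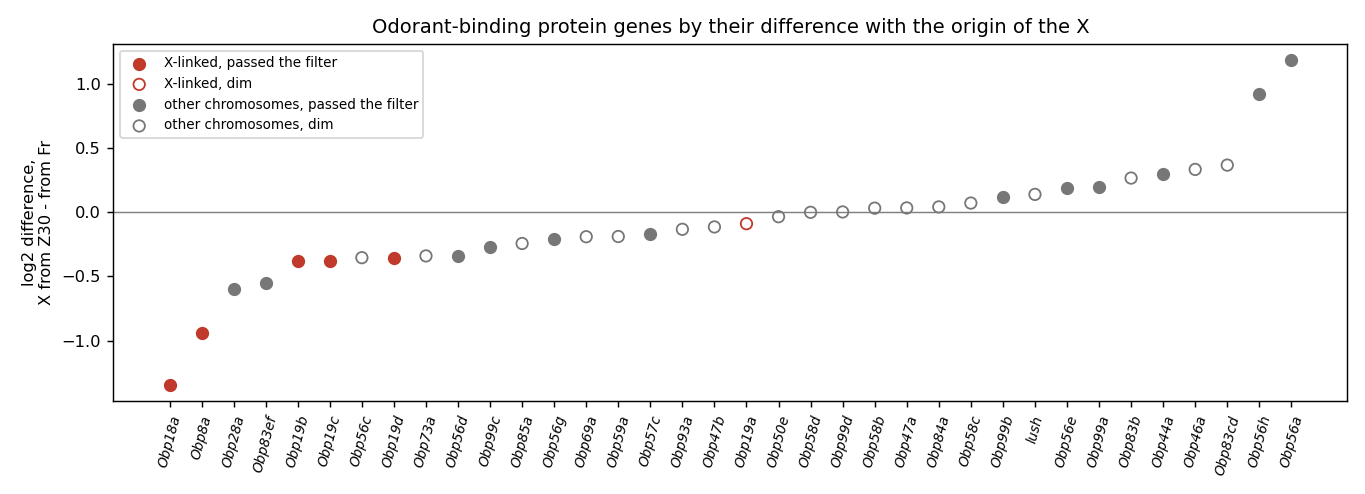
Fitted log2 difference between the X from Z30 and the X from Fr (vertical axis) for all measured Obp genes, ordered by size along the horizontal axis; red marks the X-linked genes, and open circles mark genes that did not pass the filter on dim signal. Obp18a at -1.35 and Obp8a at -0.94 hold the lowest places, and the 2 highest are Obp56a at 1.19 and Obp56h at 0.92.

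For the second and the third chromosome and for the parents limma called 0 of the 12 other Obp genes without a block, with 1, 0 and 3 of them at an unadjusted p under 0.05. Of all 8379 probe sets 342, 376 and 351 were under it, in that order. With the replicate block 4 were called between the parents, where that fit called 6.58% of all tested probe sets: Obp56h (2.06) and Obp56a (1.57) higher in Z30, and Obp99b (-1.47) and Obp99a (-0.89) lower in Z30. The same fit called 47 probe sets in all without the variance trend and 0 of 13966 without the filter, against 551 of 8379 as given, and it has 1 residual degree of freedom.

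Chemoreceptor genes were mostly too dim to test in whole heads. Of the measured genes, 6 of 53 odorant receptors, 3 of 28 gustatory receptors and 2 of 43 ionotropic receptors passed the filter. Limma called 0 of each of these for any chromosome or between the parents, with and without the block. At an unadjusted p under 0.05 there were 0, apart from 1 odorant receptor for the X in the blocked fit, with 391 of all 8379 probe sets. Of 10 tested genes for other proteins of the sensillum fluid and its support cells, 1 was called. Jhedup, a juvenile hormone esterase duplication, had a difference of -2.05 between the parents in the blocked fit (limma adjusted p = 0.0335). That fit called 6.58% of all probe sets and none without the filter. Jhedup had 65.1 on Z30 1 and 16.4, under the floor, on Z30 2, against 282.6 on Fr 1 and 154.5 on Fr 2.

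The genes next to the members allow the same question to be asked of the surrounding X. The 3 nearest genes that passed the filter were taken on either side of Obp8a, of Obp18a and of the Obp19 cluster. Limma called 0 of these 18 for the X without the block and 0 with it, and their differences ran between -0.98 and 0.56. At an unadjusted p under 0.05 there were 2 and 3 of them, with 207 and 391 of all 8379 probe sets.

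Around Obp18a the 6 neighbours differed by at most -0.25 in one direction (CG14191) and 0.11 in the other (CG34330), and none separated the arrays by their X. RhoGAP18B, which follows Obp18a directly in the annotation, differed by -0.04 (SE 0.28).

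Around Obp8a the 3 genes on one side were also lower with the X from Z30: SmydA-9, the gene next to Obp8a, by -0.98 (SE 0.39), su(r), a dihydropyrimidine dehydrogenase gene, by -0.47 (SE 0.18), and CG12118 by -0.37 (SE 0.19). Of the 18 neighbours su(r) alone did not overlap, with 799 ± 68.2 with the X from Z30 and 1104 ± 173 with the X from Fr (SD, n = 5 each). On the other side CG15369 differed by 0.56 (SE 0.58), and t, which encodes the enzyme that frees dopamine from its beta-alanyl conjugate, by 0.00 (SE 0.32). The gustatory receptor gene Gr8a differed by -0.02 (SE 0.63).

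Around the Obp19 cluster the neighbours lay between -0.42 for l(1)G0004 and 0.12 for HERC2. Pp4-19C, the catalytic subunit gene of protein phosphatase 4 that follows Obp19d, differed by -0.19 (SE 0.24).

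**Figure D5:**
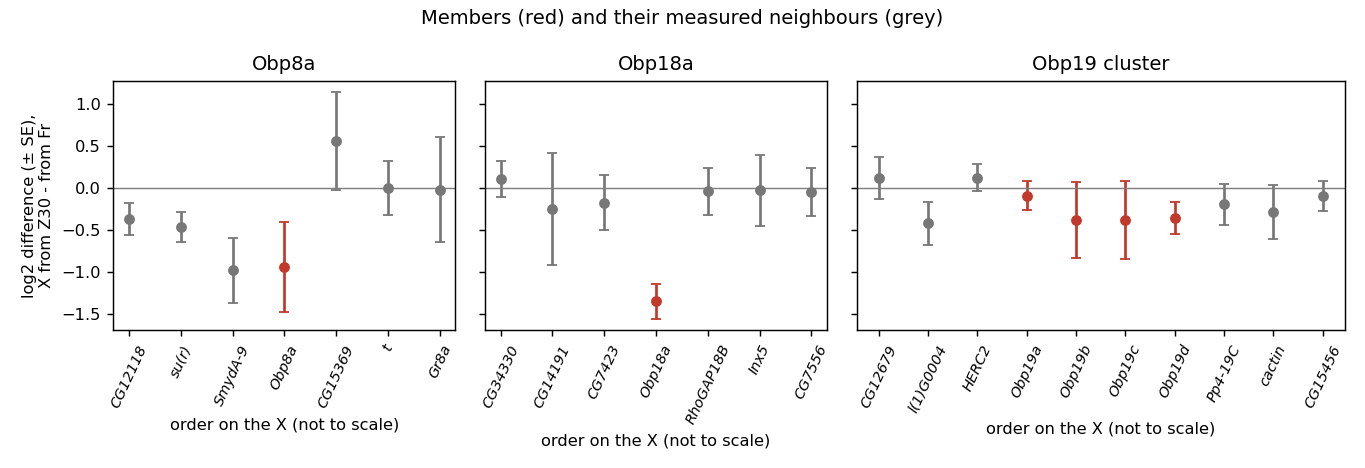
Fitted log2 difference between the X from Z30 and the X from Fr (points) with its SE (bars) for the members (red) and the 3 nearest measured genes on either side (grey), in the order of the annotation and not to scale. Obp18a at -1.35 lies below all 6 of its neighbours, which range from -0.25 to 0.11, while SmydA-9 at -0.98 lies beside Obp8a at -0.94.

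The genes whose pattern over the 10 arrays was most like that of a member were found by Pearson's correlation of log2 signal. The search ran over the 7471 other probe sets of a single gene that passed the filter. The arrays of one X origin share that origin, so these values describe likeness and are no test. For Obp18a they were ND-18 (r = 0.975), an X-linked gene for a subunit of mitochondrial complex I, CG5835 on arm 3R (r = 0.969) and CG9240 on the X (r = 0.958). ND-18 had 1281.9, 1480.7, 1458.6, 1858.9 and 1645.0 on Z30 1, Z30 2, ZMM, ZMZ and ZZM, against 2175.3, 2248.5, 2222.3, 2787.7 and 2149.2 on Fr 1, Fr 2, MMZ, MZM and MZZ. Like Obp18a it separated the arrays by their X, and it was highest on MZM. Both also held for CG9240 and for CG5835, which is not X-linked. CG5835 had 339.5 to 417.7 with the X from Z30, against 456.9 to 520.8 with the X from Fr.

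For Obp19d the most alike were Fbxl4 (r = 0.961) and Pfrx (r = 0.912) on the X and Tab2 on 2R (r = 0.903). Fbxl4 was highest on MZM with 1770.0 and lowest on Z30 1 with 828.0, as was Obp19d. For Obp19b they were CG10654 on 3L (r = 0.958), CG11414 on 2R (r = 0.935) and Agpat2 on 2L (r = 0.932), none of them X-linked, and each was lowest on Z30 1. For Obp19c they were CG8814 on 2L (r = 0.930), kat-60L1 on 3R (r = 0.891) and CG15912 on the X (r = 0.887), and each was lowest on Fr 2. Obp8a and Obp19a were not ranked in this way because each lay at or under the floor on at least 1 array.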

How the data were processed

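Transcript levels of fly heads were measured on 10 single-colour oligonucleotide arrays of 14010 probe sets. The authors deposited 1 intensity per probe set and array, not log transformed. A common scale for all arrays had been set before deposit, as the values show, and the software behind them is not given in the sources used here. Groups and chromosome origins came from the labels.

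Signals under the pooled 20th percentile (38.9) were raised to that floor and log2 transformed. The 44 control probe sets were left out, and tests ran on the 8379 probe sets whose mean log2 exceeded the 40th percentile. Fold changes near the floor are understated. Of 13966 probe sets 12443 had 1 gene, 327 several and 1196 none, and 12394 symbols were updated to the Release 6 annotation and 49 kept. Probe and gene sequences were not used here.

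Tests were made with limma 3.58.1 in R 4.3.3 (lmFit, eBayes with a mean-variance trend) and Benjamini-Hochberg adjustment over all tested probe sets at a threshold of 0.05. Origins of the 3 chromosomes entered an additive model of 10 arrays (6 residual degrees of freedom), the pairwise interactions a moderated F test (3), and the parents their 4 arrays (2). Blocked fits had a term for Z30 1 and Fr 1 against the other arrays. The same-numbered parents deviated together over 8379 probe sets (r = 0.64), but the labels do not pair them. The steps were tested on simulated data.

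The members and lists were chosen with earlier results of these data known. Named genes are the members, called genes of the lists, the 3 measured neighbours on either side of each locus, and the 3 genes most alike to each member. The genes lush, Obp83b, Orco, Obp28a, a10, Acp26Aa, SP, Mst84Da and Mst87F are named as markers of other tissues. Alternatives changed the scaling, floor, pseudocount, filter, variance trend, block or set of arrays.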

Additional observations from a re-analysis of the deposited data

Results flagged for a closer look

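In each gene, the 5 arrays of each X origin were checked for 1 array far from the others, by the gap to the nearest array over the whole range of log2 signal. Of 12 groups, which share the same 10 arrays, 5 had such an array. Chance gives about 1 in 20, a rate that does not apply to the 2 groups of Obp19a, where 4 of 5 arrays were set to the same floor. Among arrays with the X from Z30, Obp8a was lowest on Z30 1 with 26.7, the others lying between 164.1 and 295.1, and Obp19a was highest on Z30 1 with 44.0, the others lying under the floor. Among arrays with the X from Fr, Obp8a was lowest on Fr 1 with 200.0, against 378.1 to 472.7 on the others, and Obp19a was highest on Fr 1 with 67.7, the others lying under the floor. Obp19c was lowest on Fr 2 with 60.3, against 199.7 to 290.2 on the other arrays with the X from Fr. The first 4 lie on the arrays that stood apart in their hybridisation controls, and the part of that in the values was not tested.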

How the results depend on the processing

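The difference of Obp18a with the X kept its sign in 31 of 31 alternatives, between -1.50 and -1.21, with adjusted p between 0.0153 and 0.557 (limma). The number of members called for the X was 1 with quantile normalization and with the array block, and between 0 and 1 when each array was left out of the blocked fit, against 0 as reported; without the trend, without the filter, with the 6 lines alone or with the 8 arrays it was 0. For the parents it was 3 with the replicate block, against 0, and no block changed the count of 0 for the second chromosome, the third chromosome or the interactions; a blocked fit of the parents without 1 array could not be run, since no residual degrees of freedom remain. Small differences changed sign: with the second chromosome, Obp18a was 0.061 with each array divided by its median, 0.0062 in the 6 lines and 0.036 in the 8 arrays, and Obp19d was -0.17 in the 6 lines, and with the third Obp18a was 0.029 in the 8 arrays. With each array left out in turn, the second chromosome gave -0.21 to 0.18 for Obp18a, -0.082 to 0.50 for Obp19c and -0.0092 to 0.25 for Obp19d. The third gave -0.52 to 0.11 for Obp8a, -0.19 to 0.11 for Obp18a, -0.073 to 0.46 for Obp19c and -0.12 to 0.11 for Obp19d. The parents gave -1.0 to 1.20 for Obp19c and -0.21 to 0.079 for Obp19d. The X gave -1.20 to -0.57 for Obp8a, -0.67 to -0.098 for Obp19b, -0.69 to -0.16 for Obp19c and -0.50 to -0.24 for Obp19d. The cause of these changes was not tested. Dividing each array by its median moved the median of all tested probe sets by -0.10 for the third chromosome and by less elsewhere. The leave-one-array-out blocked fits and the blocked fits without a filter were added after seeing the data. Obp19a was too near the floor for any order.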
